A study of Homo sapiens with 4 samples.

Results

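The mitochondrial ribosomal protein genes were followed in SW480 and SW620 cells, human colorectal cancer cell lines, with and without knockdown of SHMT2, the mitochondrial serine hydroxymethyltransferase. A gene was included when its symbol was MRPL or MRPS followed by a number and an optional letter, when it was no pseudogene, and when it had at least 10 counts in 2 or more libraries. This gave 76 genes among the 14024 tested and the 26364 rows of the count table, 48 named for the large subunit (MRPL) and 28 named for the small subunit (MRPS). Total RNA was sequenced in 4 libraries, with 1 library for each line and condition. The libraries are SW480 control, SW480 with SHMT2 knockdown, SW620 control and SW620 with SHMT2 knockdown. In the study's system a doxycycline-inducible shRNA lowers SHMT2, and neither the labels nor the methods state whether the controls received doxycycline. The paper's account of its expression profile names control shRNA cells as the comparison, while the labels say only control. Both lines are single established lines, so a difference between them is a difference between these lines only.

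Mitochondria carry their own ribosomes, which translate the few proteins encoded by mitochondrial DNA, all of them parts of the respiratory chain and the ATP synthase. The protein components of these ribosomes are all encoded in the nucleus, made in the cytosol and imported. SHMT2 supplies one-carbon units inside mitochondria, and these units are needed for tRNA modification and for the formylated initiator methionine used in mitochondrial translation. The large subunit holds the peptidyl transferase centre and the exit tunnel, and the small subunit holds the decoding centre. Some of the names mislead, since MRPS18A and MRPS30 sit in the large subunit and MRPS36 is a component of the 2-oxoglutarate dehydrogenase complex.

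Part of the promoters of these genes held short letter runs that the selection did not use, and examples are printed to show where they lie. RefSeq promoter sequences on GRCh38.p14, which reach from 250 bases before to 50 bases after the start of a gene, were matched for 67 of the 76 genes. The letters AAGATGGC, the core of the motif of YY1, were searched on both strands and stood in a promoter of 20 of the 67 genes (29.9%). Among genes with a promoter sequence, they stood in a promoter of 6.34% of the tested genes and of 8.06% of the cytosolic ribosomal protein genes. Counted per promoter and not per gene, and so in another unit, they stood in 2.89% of all promoters. In 12 of these 20 genes (60%) the ATG inside the run is the annotated start codon, as it was in 251 of the 654 tested genes that hold the run (38.4%). The windows below cover the run in MRPS18A, MRPS18B, MRPS27 and MRPS30, with the run in capitals and each window read 5′ to 3′ on the strand of its gene. The run begins 10, 24, 17 and 14 bases after the start of the respective gene.
MRPS18A, chr6:43687764-43687793, minus strand: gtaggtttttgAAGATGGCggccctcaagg
MRPS18B, chr6:30617852-30617881, plus strand: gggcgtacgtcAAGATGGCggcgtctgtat
MRPS27, chr5:72320206-72320235, minus strand: tggtacgctccAAGATGGCtgcctccatag
MRPS30, chr5:44808949-44808978, plus strand: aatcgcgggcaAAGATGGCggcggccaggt

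The letters CCGGAAG, a core shared by ETS factors such as GABPA (a subunit of nuclear respiratory factor 2), were also searched on both strands. They stood in a promoter of 29 of the 67 genes (43.3%), against 21.4% of tested genes and 37.1% of cytosolic ribosomal protein genes. Counted per promoter and not per gene, they stood in 10.3% of all promoters. In 24 of the 29 genes a match lay between 60 bases before and 10 bases after the start, and 8 genes held both runs. The windows below show the ETS letters in 6 genes called between the cell lines. The median log2 difference, SW620 over SW480, was 0.30 for the 29 genes with this run and 0.29 for the 38 without it. The letters are in capitals, as CCGGAAG or as its reverse complement CTTCCGG.
MRPS18A, chr6:43687804-43687833, minus strand: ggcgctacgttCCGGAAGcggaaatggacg
MRPL43, chr10:100987497-100987526, minus strand: tcgtcccggaaCCGGAAGcctcgaggttta
MRPS31, chr13:40771204-40771233, minus strand: aaggcgccaggCCGGAAGcggaagagaggg
MRPL18, chr6:159790430-159790459, plus strand: gggacttgctaCTTCCGGgtcggtggcgtc
MRPS21, chr1:150293839-150293868, plus strand: cgtaatttccgCTTCCGGtagtgagaaccc
MRPL28, chr16:370513-370542, minus strand: cggcagatcggCTTCCGGttccggtgggct

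The other runs that were searched stood nearer to the share among tested genes. TGCGCA, the core of the motif of NRF1 (nuclear respiratory factor 1), was found in a promoter of 15 genes (22.4%, against 15.6% of tested genes). The E-box CACGTG, which MYC and related factors bind, was found in 9 (13.4%, against 12.4%). A match is a description of the letters and no evidence of binding.

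The libraries held 5530129 to 13774288 counts. SHMT2 itself fell from 277 to 30.9 CPM (read counts relative to the library total, scaled by the TMM method) in SW480 and from 688 to 47.6 CPM in SW620, a log2 fold change of -3.54 (SE 0.13, edgeR adjusted p = 1.059e-167), in the direction of the labels. The epithelial markers EPCAM, KRT8, KRT18, KRT19, CDH1 and CDX2 had counts in every library, while CDX1 was at 0 in all 4 libraries. KRT20 (15, 4, 1 and 2 counts in SW480 control, SW480 knockdown, SW620 control and SW620 knockdown) and GPA33 (4, 5, 2 and 4) were near 0 in both lines. CDH17 (1, 0, 13 and 25) and LGR5 (1, 0, 343 and 659) were near 0 in SW480. VIL1 had 2 and 1 counts in the SW480 libraries and 2029 and 5105 in the SW620 libraries. Among 9 markers of other cell types, 8 had at most 8 counts in any library, and the exception was LUM, a fibroblast marker, with 0 and 0 counts in SW480 and 107 and 313 in SW620. At an edgeR adjusted p under 0.05, 2 of the 9 tested epithelial markers were lower in the knockdown, against 1.17% of all tested genes. They were KRT8 (log2 fold change -0.34) and KRT18 (-0.34). Only CDH1 (0.45) was higher, 1 of 9, against 0.492% of all tested genes. The part of these markers in the results on mitochondrial ribosomal protein genes was not tested.

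Every one of the 76 genes was expressed in all 4 libraries, at 9.50 to 210 CPM. Together they took 0.501% of all counts in the SW480 control (95% exact binomial interval 0.497% to 0.506%). In the SW480 knockdown they took 0.487% (0.482% to 0.492%). In SW620 they took 0.578% in the control (0.572% to 0.585%) and 0.560% in the knockdown (0.556% to 0.564%). These intervals cover counting error only. The share was therefore smaller in the knockdown library than in the control of either line, and larger in SW620 than in SW480. Cytosolic ribosomal protein genes took 6.70% to 7.46% of the counts.

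Levels per kilobase of transcript (CPM divided by the median length of the annotated coding transcripts in kilobases) spanned a 28.8-fold range, from 8.37 to 241 as means of the 4 libraries. The middle of the distribution was narrow, with quartiles at 34.5 and 76.5 CPM per kilobase. MRPL49 was highest at 260, 226, 242 and 235 CPM per kilobase in SW480 control, SW480 knockdown, SW620 control and SW620 knockdown, the order kept throughout. It was followed by MRPL51, MRPL12, a stalk protein that binds translation factors, and MRPS34, with means of 219, 176 and 133 CPM per kilobase. For MRPL12, 68.2% of its exon bases are shared with a same-strand annotated gene, AC139530.2, so its counts are uncertain. Exons of NCAPD2 on the opposite strand overlap 31.3% of MRPL51, and the use of strand in the counting is not given. MRPL50, MRPL22, MRPS36 and MRPS14 were lowest, with means of 8.37, 12.5, 13.6 and 14.2 CPM per kilobase. The order depended on the length used. By coding length MRPL51 was first and MRPL49 moved from rank 1 to rank 4, MRPS34 moved from 4 to 7, MRPL50 from 76 to 61 and MRPL22 from 75 to 63. With 1 library per line and condition, neighbouring genes in this order could not be told apart by replicate spread.

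Of the genes that fit the naming rule, only MRPS24, a small subunit protein, missed the count minimum, with 1, 0, 0 and 0 counts. The readthrough gene URGCP-MRPS24 had 0 counts in every library, and 85.7% of the coding transcript of MRPS24 (606 of 707 bases) lies in exons of that gene. The neighbour URGCP had 390, 266, 255 and 644 counts. How the counting treated reads that fall in both MRPS24 and the readthrough gene is not given in the sources used here, so the MRPS24 value is not read as a lack of expression.

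Knockdown and control were then compared over both lines. No mitochondrial ribosomal protein gene passed the test. With edgeR's quasi-likelihood test at an adjusted p under 0.05, 0 of 76 were lower, against 1.17% of all tested genes, and 0 were higher, against 0.492%. At an unadjusted p of 0.05 or less 2 were lower (4.91% of all tested genes) and 0 were higher (4.15%). DESeq2 called 0 of the 76, also at an unadjusted p of 0.05 or less, and gave no adjusted p for 60 of them. It called only 28 of all tested genes (0.2%), so its count of 0 says little about these genes. The fitted log2 fold changes lay between -0.36 and 0.13, with standard errors of 0.11 to 0.24. All 76 of the 95% intervals lay between -0.74 and 0.40, inside a 2-fold change in either direction. The fit has 1 residual degree of freedom per gene. Its p-values, standard errors and intervals therefore rest on a spread shared across genes and cover these 4 libraries only.

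Within these small values, most genes were on the lower side. The median log2 fold change was -0.06 for the 76 genes, against 0.01 for all tested genes, and 52 of the 76 were below 0. It was -0.06 for the large subunit and -0.06 for the small subunit. The small subunit median was -0.04 in SW480 alone and -0.02 in SW620 alone, -0.03 after thinning to the smallest total and -0.03 without the line term. In both lines 37 of 76 (48.7%) were lower in the knockdown library, against 24.7% of all tested genes, and 10 (13.2%) were higher in both lines, against 27%. The other 29 went opposite ways, as did 6392 of the 14024 tested genes. By subunit, 26 of 48 large subunit genes and 11 of 28 small subunit genes were lower in both lines, and the difference between subunits was not tested. The summed level of all 76 went from 5007 to 4724 CPM in SW480 and from 5864 to 5737 CPM in SW620, which is 94.4% and 97.8% of control. Cytosolic ribosomal protein genes stood on the other side, at 105% and 104% of control, with 43 of 77 higher in both lines and 5 lower in both. None of these 77 was called after adjustment, against 1.17% lower and 0.492% higher among all tested genes. At an unadjusted edgeR p of 0.05 or less 3 of 77 were higher, against 4.15% of all tested genes, and 0 lower, against 4.91%. The 3 were RPS18, RPL31 and RPL4, named after their values were seen. These counts and sums have no replicate test.

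**Figure D1:**
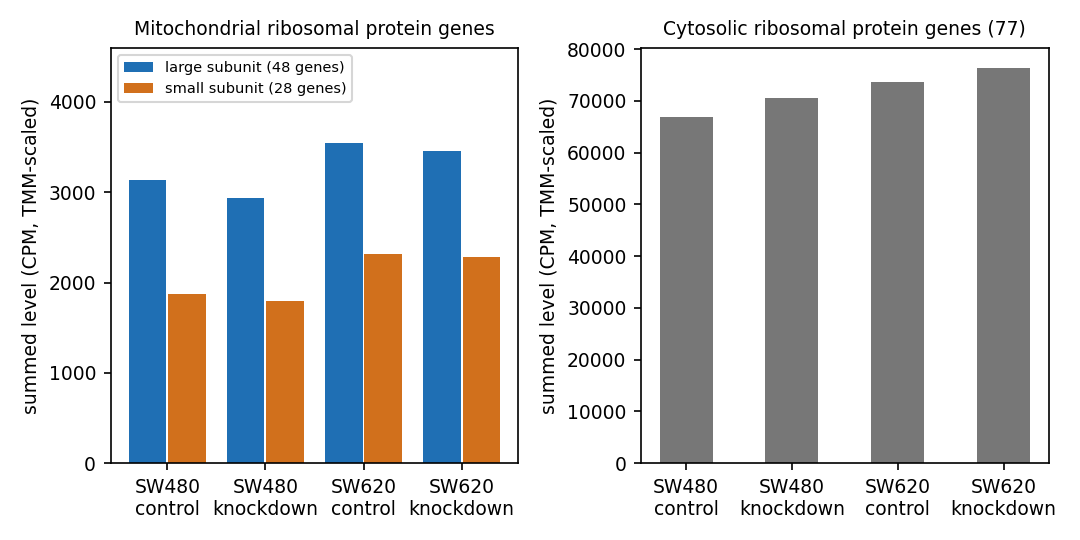
Summed levels in each library, in TMM-scaled CPM on axes that start at 0, as 1 bar per library and gene group with no replicates and so no error bars. The large subunit went from 3132 to 2932 in SW480 and from 3546 to 3456 in SW620, the small subunit from 1875 to 1792 and from 2318 to 2281, while the cytosolic ribosomal protein genes were higher in the knockdown library of both lines.

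Among the small subunit genes, MRPS6, which belongs to the bacterially conserved core, had the most negative value of all 76. Its levels were 22.3, 16.3, 64.9 and 53.0 CPM, lower in the knockdown library of both lines (log2 fold change -0.36, SE 0.15, edgeR adjusted p = 0.33). MRPS36, the dehydrogenase component, had 13.2, 10.4, 23.1 and 18.4 CPM (log2 fold change -0.33, SE 0.21, edgeR adjusted p = 0.72). In both genes the knockdown library was below its control in each line, but the difference between the lines was larger than that between the conditions. MRPS31 and MRPS15 followed with log2 fold changes of -0.27 and -0.21.

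Among the large subunit genes MRPL23, a protein at the exit of the peptide tunnel, had 51.7, 40.4, 99.7 and 86.9 CPM (log2 fold change -0.27, SE 0.13, edgeR adjusted p = 0.51). MRPL41 had 59.3, 49.8, 51.5 and 43.0 CPM (log2 fold change -0.26, SE 0.14, edgeR adjusted p = 0.58). It was nearly the same amount lower in each line, with within-line log2 fold changes of -0.25 and -0.26. MRPL55 and MRPL11, a stalk protein, had log2 fold changes of -0.26 and -0.25. The most positive values among genes that were higher in both lines were smaller. MRPL30 was at 63.4, 65.6, 124 and 143 CPM (log2 fold change 0.13, SE 0.13, edgeR adjusted p = 0.91). MRPL24, MRPL43 and MRPL52 had values of 0.11, 0.08 and 0.06, and in the small subunit MRPS35, MRPS33, MRPS28 and MRPS27 had 0.12, 0.10, 0.07 and 0.06.

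**Figure D2:**
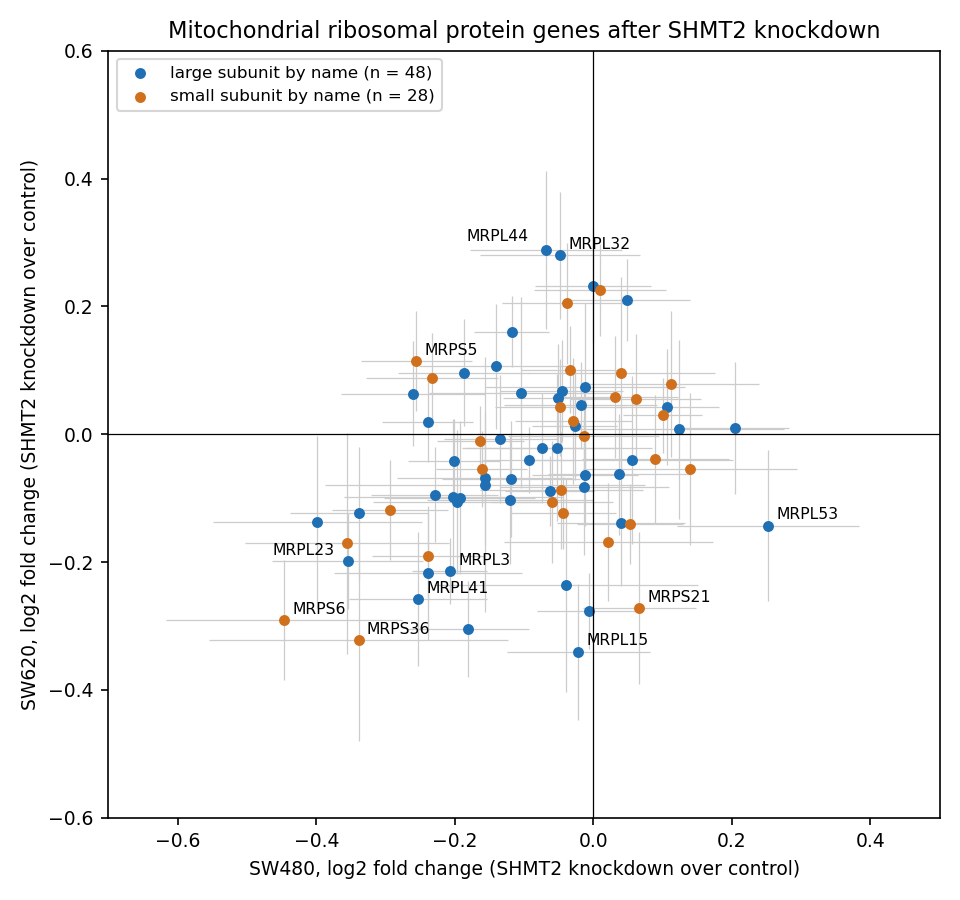
Log2 fold change of each gene (knockdown over control, prior count 2) in SW480 on the horizontal axis and in SW620 on the vertical axis, with grey bars of 1 counting standard error and colours for the subunit by name. The lower left part of the plot holds 37 genes, with MRPS6 and MRPS36 farthest out, and the upper right part holds 10.

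The structural groups of the ribosome gave no calls either, since they are parts of the 76 genes. With 1.17% of all tested genes called lower and 0.492% higher, this says little about groups so small. The stalk proteins MRPL10, MRPL11 and MRPL12 had log2 fold changes of -0.01, -0.25 and 0.02. The 7 genes around the tunnel exit had a median of -0.15, with 5 lower in both lines, and the 7 of the central protuberance had a median of -0.05, also with 5. Large subunit proteins with a bacterial counterpart (30 genes) had a median of -0.09 and those specific to mitochondria (18 genes) one of -0.04. In the small subunit the 17 conserved genes had -0.07 and the 11 specific ones 0.00. MRPS12, the protein of the decoding centre, had a value of -0.08. MRPS18A, MRPS18B and MRPS18C, paralogs that share 1 bacterial counterpart, had 0.00, -0.21 and 0.02, and MRPS30 had 0.03. Exons of RSPH9 on the opposite strand overlap 47.0% of MRPS18A, and the use of strand in the counting is not given in the sources used here.

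The rest of the mitochondrial translation apparatus was described from lists of its parts, and 0 genes of any of these lists passed the test in the knockdown. Only 1.17% of all tested genes were called lower and 0.492% higher, so 0 calls in lists this short say little about them. The lists were other ribosomal subunits such as DAP3 and PTCD3 (0 of 6, median 0.06), translation factors (0 of 18, 0.00), assembly factors (0 of 26, -0.02) and mitochondrial aminoacyl-tRNA synthetases (0 of 21, 0.03). Mitochondrial transcription and replication (0 of 9, median -0.02) and nuclear regulators of the pathway (0 of 13, -0.01) completed them. Named after their values were seen, 3 of the 93 genes of these lists had an unadjusted p of 0.05 or less, 2 lower and 1 higher, against the 4.91% lower and 4.15% higher among all tested genes. POLRMT, the mitochondrial RNA polymerase, was at 206, 157, 147 and 129 CPM (log2 fold change -0.29, SE 0.12, edgeR adjusted p = 0.28). POLG, the mitochondrial DNA polymerase, was at 131, 102, 126 and 107 CPM (-0.30, SE 0.12, edgeR adjusted p = 0.30). WARS2, which charges mitochondrial tryptophan tRNA, was at 6.87, 12.4, 25.7 and 28.8 CPM (0.43, SE 0.20, edgeR adjusted p = 0.46). POLRMT and POLG were lower in the knockdown library of both lines and WARS2 was higher in both.

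The knockdown values were also set beside the promoter runs. The 20 genes with the YY1 letters had a median log2 fold change of -0.02 and the 47 without had -0.07. For the ETS letters the medians were -0.06 with (29 genes) and -0.06 without (38 genes). YY1, GABPA and NRF1 themselves had log2 fold changes of -0.16, -0.01 and 0.07, with none called. MYC was not called either (-0.05), and it went opposite ways in the lines, from 547 to 432 CPM in SW480 and from 461 to 543 CPM in SW620, a difference between the lines that was not tested.

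The lines differed in many of these genes. SW480 was established from a primary colon tumour and SW620 from a lymph node metastasis of the same patient. In SW620, 35 of 76 genes (46.1%) were higher at an edgeR adjusted p under 0.05, against 32.3% of all tested genes, and 7 (9.21%) were lower, against 31.3%. The other 34 were not called. With the DESeq2 Wald test 22 were higher, against 19.1% of all tested genes. It called 5 lower, a count with no share over all tested genes to set beside it. Of the 42 genes called by edgeR, 27 kept their call in all 6 other fits with both terms. The median log2 difference, SW620 over SW480, was 0.31 for the 76 genes and 0.01 for all tested genes, and it was 0.31 in the large and 0.30 in the small subunit. Large subunit genes were called higher in 20 of 48 and lower in 4, and small subunit genes in 15 of 28 and in 3. Among the called genes 6 were over 2-fold higher (7.89% of the 76, against 14.1% of all tested genes) and 1 was over 2-fold lower (1.32%, against 17.7%). With 1 culture of each line per condition, the p-values measure only the spread between these libraries.

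In all 42 called genes both SW620 libraries lay on the same side of both SW480 libraries. The calls rest on these same libraries, so this adds no support to them. Over all 76 genes, both SW620 libraries lay above in 46, against 40.7% of all tested genes, and below in 18, against 39.6%. In 12 genes the lines overlapped. The summed level was 1.17 times as high in SW620 as in SW480 in the control libraries and 1.21 times in the knockdown libraries. For the small subunit these ratios were 1.24 and 1.27, for the large subunit 1.13 and 1.18, and for the cytosolic ribosomal protein genes 1.10 and 1.08.

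**Figure D3:**
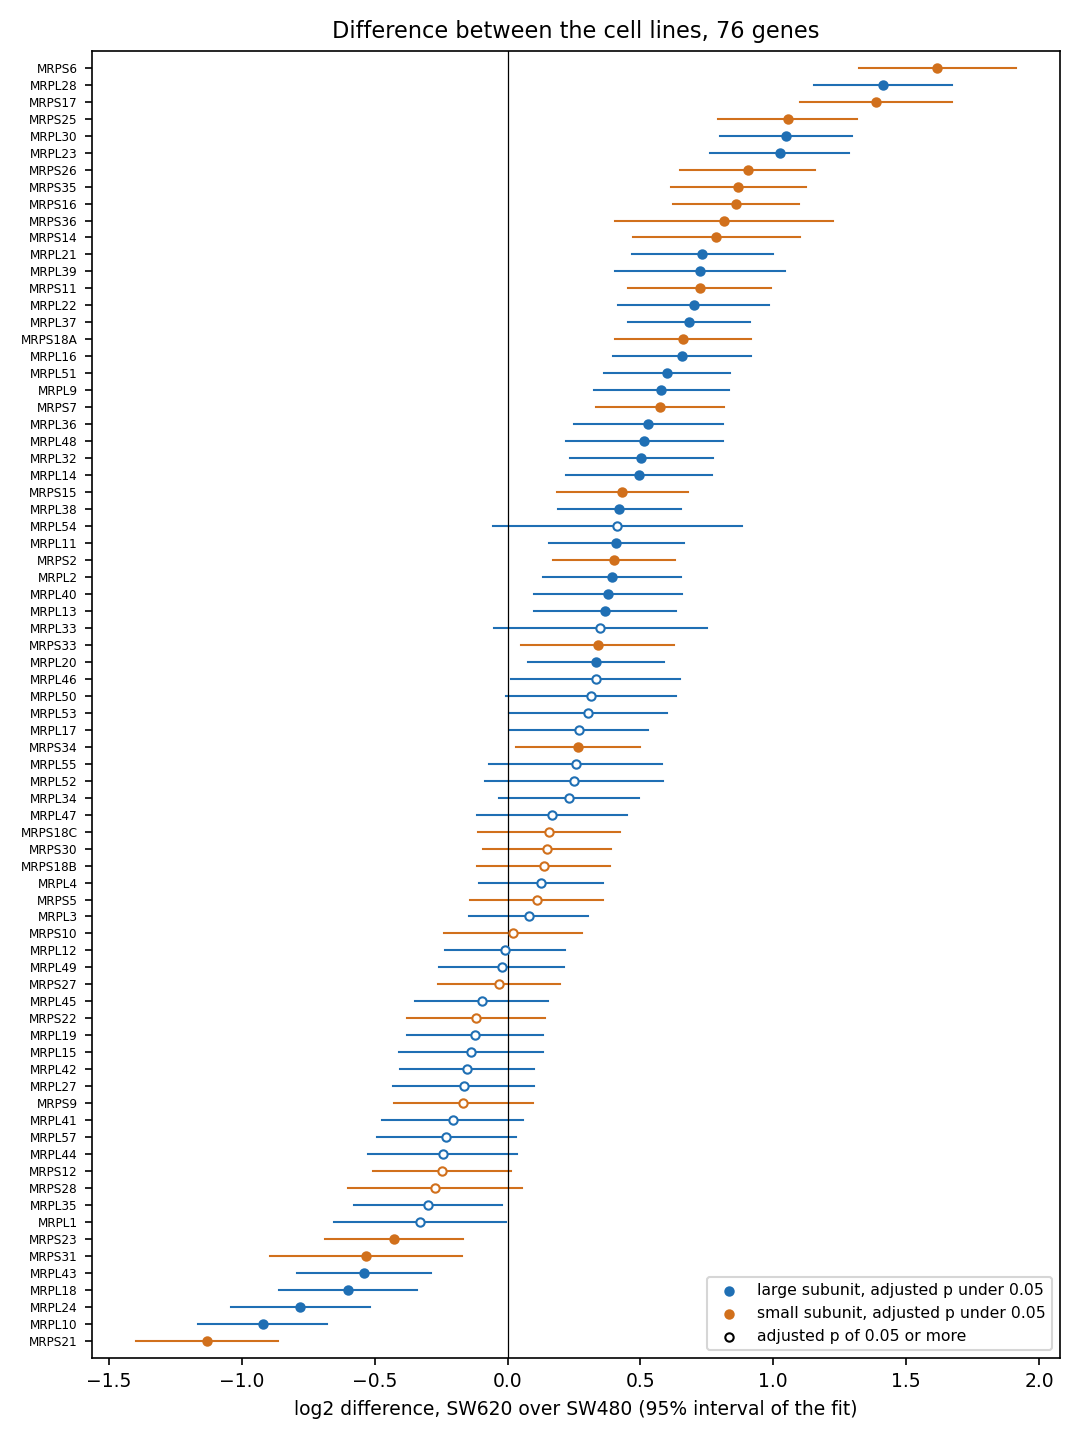
Log2 difference, SW620 over SW480, of all 76 genes in order of size, with the 95% interval of the edgeR fit as a line and filled points for an adjusted p under 0.05. Filled points lie mostly on the right (35 genes), with 7 on the left, from MRPS6 at 1.62 to MRPS21 at -1.13.

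The 5 genes most raised in SW620 came from both subunits. MRPS6 (chromosome 21, 34073224 to 34143034, GRCh38) was at 22.3 and 16.3 CPM in SW480 and 64.9 and 53.0 CPM in SW620, a log2 difference of 1.62 (SE 0.15, edgeR adjusted p = 1.21e-25). MRPL28 (chromosome 16, 366969 to 371289) was at 43.8 and 43.3 CPM and at 114 and 118 CPM, a difference of 1.41 (SE 0.13, edgeR adjusted p = 1.942e-25). In MRPL28 the knockdown and control libraries of a line differed little beside the 2.66-fold step between the lines. MRPS17 (chromosome 7, 55951819 to 55956501), a conserved small subunit protein, was at 23.3 and 23.7 CPM and at 65.1 and 57.9 CPM, a difference of 1.39 (SE 0.15, edgeR adjusted p = 2.062e-20). A same-strand gene, AC092647.5, shares 21.8% of its exon bases. MRPS25 (chromosome 3, 15042460 to 15065335), which is specific to mitochondria, was at 45.1 and 44.7 CPM and at 93.3 and 93.2 CPM. This was a difference of 1.06 (SE 0.13, edgeR adjusted p = 1.745e-14). Exons of NR2C2 on the opposite strand overlap 22.2% of MRPS25. MRPL30 (chromosome 2, 99181079 to 99197626) differed by 1.05 (SE 0.13, edgeR adjusted p = 9.694e-16), and a same-strand gene, AC079447.1, shares 19.5% of its exon bases. MRPL23 was the sixth gene over 2-fold, at 1.02.

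The genes lower in SW620 were fewer. MRPS21 (chromosome 1, 150293720 to 150308979), a small subunit protein of the conserved core, was at 77.8 and 81.5 CPM in SW480 and at 40.2 and 33.2 CPM in SW620, a log2 difference of -1.13 (SE 0.14, edgeR adjusted p = 6.201e-16). MRPL10 (chromosome 17, 47823272 to 47831534), the base of the stalk, was at 142 and 139 CPM and at 73.7 and 74.4 CPM, a difference of -0.92 (SE 0.12, edgeR adjusted p = 7.472e-13). The other stalk genes were MRPL12, at -0.01 and not called, and MRPL11, at 0.41 (edgeR adjusted p = 0.003), which was not called with the DESeq2 Wald test (adjusted p = 0.097). MRPL24 (chromosome 1, 156737303 to 156741590), a protein near the tunnel exit, was at 79.4 and 91.6 CPM and at 49.7 and 50.03 CPM, a difference of -0.78 (SE 0.13, edgeR adjusted p = 1.695e-08). MRPL18 (chromosome 6, 159789812 to 159798436), a protein of the central protuberance, differed by -0.60 and MRPL43 (chromosome 10, 100969458 to 100987515) by -0.54. Exons of SEMA4G on the opposite strand overlap 32.7% of MRPL43. MRPS31 and MRPS23 were the others called, at -0.53 and -0.43, and both lost the call with the DESeq2 Wald test (adjusted p = 0.20 and 0.071). In each of the 7 genes both SW620 libraries were below both SW480 libraries, which adds no support, since the calls rest on these libraries.

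**Figure D4:**
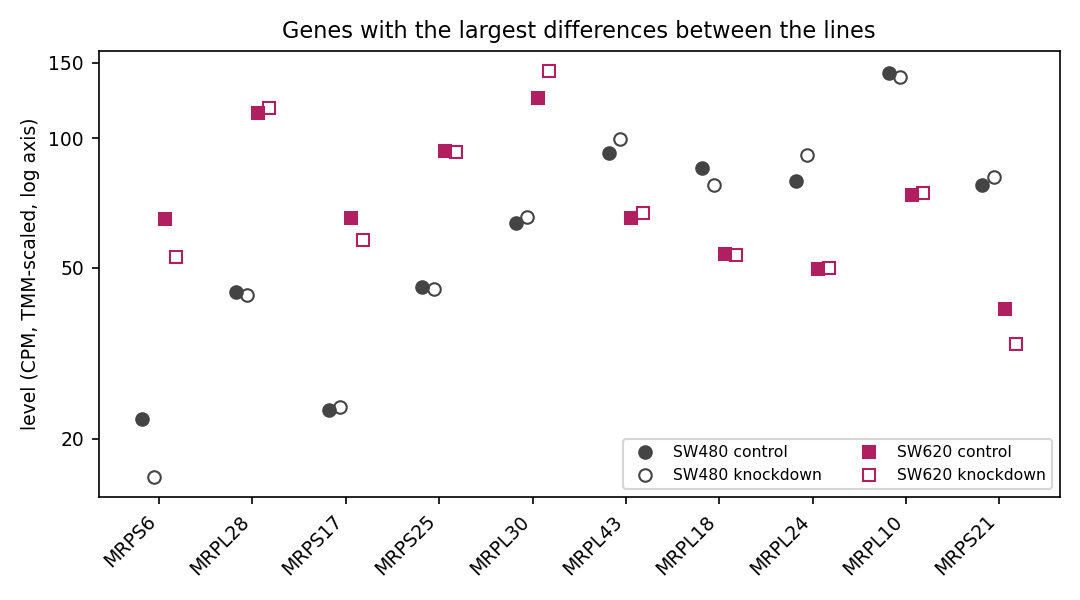
Levels (CPM, TMM-scaled, log axis) of the 5 genes most raised and the 5 most lowered in SW620, with circles for SW480, squares for SW620, filled for control and open for knockdown, 1 library each. The circles and squares do not overlap in any of the 10 genes, which were picked for the size of this difference. Filled and open symbols of a line lie close together, with MRPS6 the widest apart in SW480 (22.3 and 16.3).

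The difference between the lines was set beside that of the surrounding genes. For each of the 76 genes the median log2 difference of the other tested genes within 5 Mb was taken, 10 to 199 genes each, with other mitochondrial ribosomal protein genes left out. Across the 76 genes, the difference of a gene and the median of its neighbours had a Pearson correlation of 0.55 and a Spearman correlation of 0.53. The sign was the same in 48 of 76 (63.2%), and in 28 of the 42 called genes. The same measures over 13194 genes with a position were 0.14, 0.27 and 60.4%. All points come from the same 4 libraries and nearby genes share neighbours, so these are descriptions with no test. MRPS17 lay among 13 tested genes with a median of 1.12, and MRPL18 and MRPL43 among genes with medians of -0.68 and -0.63. MRPL28, MRPL30, MRPS21 and MRPL24 stood apart from theirs, whose medians were -0.08, 0.02, -0.07 and -0.07. MRPL22 (0.70) and MRPS11 (0.72) were called higher among neighbours with medians of -0.47 and -0.24. Copy number was not measured in these libraries.

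**Figure D5:**
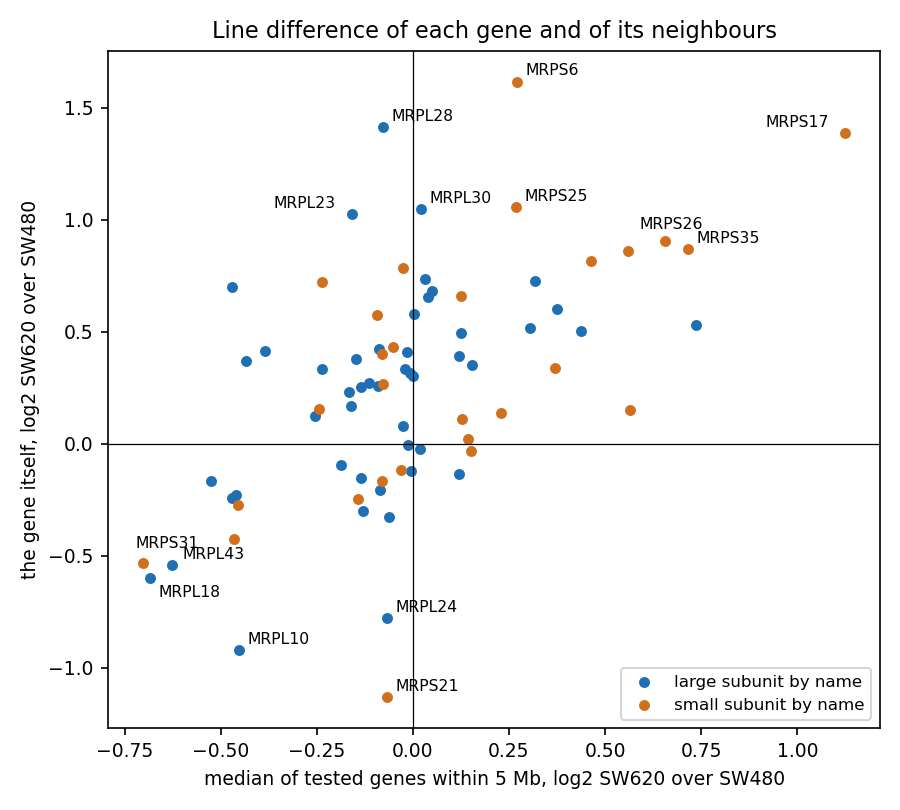
Log2 difference, SW620 over SW480, of each gene (vertical axis) against the median of the tested genes within 5 Mb of it (horizontal axis), coloured by subunit. MRPS17 lies at the upper right (1.12 and 1.39) and MRPL18 and MRPL43 at the lower left. MRPL28, MRPL30, MRPL23, MRPS21 and MRPL24 lie far from 0 on the vertical axis with neighbours near 0.

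Counts of related genes called in SW620 are to be read against the 32.3% higher and 31.3% lower among all tested genes. The mitochondrial aminoacyl-tRNA synthetases were called higher in 13 of 21 and lower in 1, with a median difference of 0.42. The assembly factors were higher in 14 of 26 and lower in 6 (0.39), and the translation factors higher in 7 of 18 and lower in 3 (0.08). TFAM, which packages mitochondrial DNA and takes part in starting its transcription, was named after its values were seen. It was at 56.9 and 53.9 CPM in SW480 and at 185 and 178 CPM in SW620 (log2 difference 1.71, SE 0.13, edgeR adjusted p = 1.16e-40). POLRMT went the other way, with a log2 difference of -0.39 (SE 0.12, edgeR adjusted p = 0.002). The cytosolic ribosomal protein genes were higher in 35 of 77 and lower in 10, with a median of 0.16.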

How the data were processed

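Total RNA of 4 cultures was made into Illumina TruSeq libraries. The authors deposited raw read counts per gene symbol in 1 table, without normalization. The submitters' processing notes name Bowtie 0.12.2 and hg18 without a role, and the paper names both an Agilent RNA-seq and an Agilent microarray. The counting program, annotation and strand setting are not given in the sources used here. All values are whole, and totals differ between libraries. Totals were 9590550 and 6432779 counts in SW480 (control, knockdown) and 5530129 and 13774288 in SW620, of which 99.8% to 99.9% lay in tested genes. A count of 1 is worth 0.0743 to 0.183 CPM, so precision differs between libraries. Spreadsheet software had turned 28 symbols into dates, and those rows were kept.

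Genes with at least 10 counts in 2 libraries entered edgeR 4.0.16 (R 4.3.3) with TMM scaling (quasi-likelihood test, two-sided, terms for line and treatment, Benjamini-Hochberg adjustment over 14024 genes). The cell line pairs the libraries and was a term of the model, since knockdown and control of a pair are the same line. Standard errors follow from the F statistic. For log2 values of a single line the prior count was 2, and these have counting errors only. DESeq2 1.42.0 was the alternative test. Gene positions and lengths came from GENCODE 29 on GRCh38 and promoters from RefSeq on GRCh38.p14, and neither need match the build of the deposited counts. No coordinates were converted. The statistics were tested on simulated data in which the changed genes differed 2-fold. The knockdown values of the mitochondrial ribosomal protein genes were smaller, so that test does not show whether such changes could be called.

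The members and the gene lists were chosen with earlier results of these data known. Named genes are the 4 most negative and 4 most positive of each subunit with the same sign in both lines, the 5 largest line differences in each direction, the 4 highest and lowest levels, the 3 farthest apart between lines in each direction, and MRPL10, MRPL11, MRPL12, MRPS12, MRPS18A, MRPS18B, MRPS18C, MRPS30 and MRPS36. A gene known by an older symbol in the table, ICT1 (now MRPL58), counts among the other subunits. Pseudogene rows (3) were left out. Alternatives were other scalings, filters, thinning, DESeq2 and the fit without the line term.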

Additional observations from a re-analysis of the deposited data

Results flagged for a closer look

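For 5 genes the knockdown library was above its control in one line and below it in the other, among the 3 genes in each direction whose log2 fold changes lay farthest apart between the lines. In all, 29 of the 76 genes went opposite ways, as did 6392 of the 14024 tested genes. Each difference is SW620 minus SW480 on the log2 scale, with a counting standard error only, and was not tested, since there is 1 library per line and condition. MRPL53 was higher in SW480 (27.7 and 33.0 CPM in control and knockdown) and lower in SW620 (39.4 and 35.7 CPM), a difference of -0.40 (counting SE 0.18). CCDC142 on the same strand shares 45.2% of its exon bases. MRPS21 had 77.8 and 81.5 CPM in SW480 and 40.2 and 33.2 CPM in SW620, a difference of -0.34 (counting SE 0.14). MRPS5, a conserved small subunit protein, went the other way, with 90.8 and 76.02 CPM in SW480 and 86.0 and 93.2 CPM in SW620, a difference of 0.37 (counting SE 0.11). MRPL44, a protein near the tunnel exit, had 45.1 and 43.0 CPM in SW480 and 33.4 and 40.8 CPM in SW620, a difference of 0.36 (counting SE 0.17). MRPL32 had 40.7 and 39.4 CPM in SW480 and 51.3 and 62.4 CPM in SW620, a difference of 0.33 (counting SE 0.15). MRPL15, the third gene in the direction of MRPL53 and MRPS21, was lower in both lines (50.1 and 49.3 CPM, then 51.0 and 40.2 CPM), with a difference of -0.32. The difference exceeded 2 counting standard errors in 12 of the 76 genes. No share over all tested genes was computed to set beside this count, so it is not read as a result about these genes.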

How the results depend on the processing

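In the knockdown comparison the count of called genes was 0 in either direction under every alternative that was run (DESeq2 size factors, total counts, no filter, a minimum of 50 counts, thinning, the DESeq2 Wald test and no cell line term). Without the cell line term (no replicate block) SHMT2 had a log2 fold change of -3.62 and an adjusted p of 1, so that fit could not call even the targeted gene. The size of the p-values depended strongly on the fit. For SHMT2 the edgeR adjusted p was 1.059e-167 in the reported fit and 1.933e-08 with a minimum of 50 counts. Its log2 fold change was -3.54 in both. For the line difference of MRPS6 the edgeR adjusted p was 1.21e-25 and 1.821e-07 in these fits. The median knockdown value stayed below 0 throughout. For the small subunit it was -0.0551 in the reported fit, -0.0465 with DESeq2 size factors, -0.0425 with total counts, -0.0767 without a filter, -0.0315 after thinning, -0.0326 with no cell line term (the pairing left out), -0.0641 with MRPS18A and MRPS30 moved to the large subunit and MRPS36 left out, and -0.0361 to -0.0245 with the pair of 1 line left out. For the large subunit it was -0.0833 to -0.0525 with the pair of 1 line left out. With total counts 31 of 76 genes (40.8%) were lower in both lines, against 23.2% of all genes, and with DESeq2 size factors 34 (44.7%), against 24.1%. Genes called higher in SW620 were 35 in the reported fit, 22 with the DESeq2 Wald test and 32 to 34 under the other scalings, filters and thinning, and those called lower were 5 to 10. With both terms, leaving out 1 library leaves no residual degree of freedom. A fit on the line alone, chosen after seeing the data, gave 25 to 31 higher and 6 to 7 lower calls with 1 library left out. Of the 42 called genes, 27 kept their call in all 6 alternative fits with both terms, and 15 lost it in at least 1, each of these with the DESeq2 Wald test. The 5 largest differences in each direction, MRPL23, TFAM and POLRMT kept theirs, and MRPL11, MRPS23 and MRPS31 lost theirs with the DESeq2 Wald test. In the knockdown comparison the interval of a single gene reached as far as -0.74, and 67 of 76 intervals lay within 0.5 of 0.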
